A study of Mus musculus with 12 samples.

Results

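Transcripts of 10 costimulatory and checkpoint genes were followed in thioglycollate-elicited PECs, the mixed and mostly macrophage population that an irritant draws into the peritoneum. The members were the rows of the deposited table whose gene symbol was *Cd40*, *Cd80*, *Cd86*, *Cd83*, *Cd274*, *Pdcd1lg2*, *Icosl*, *Havcr2*, *Cd200r1* or *Sirpa*, and 10 of 10 names were found among 12850 listed genes. PECs came from WT C57BL/6 mice or from mice homozygous for a *Zc3h12a* S513A knock-in allele (S513A), which replaces a serine of the Regnase-1 protein with alanine and blocks binding by 14-3-3 proteins. Each mouse received 2 ml of 4% Brewer's thioglycollate, and cells were collected 3.5 days later, so the controls also came from an inflamed cavity. PECs of both genotypes were left without LPS (0 hr) or stimulated for 4 or 8 hr with 100 ng/ml of LPS, the Gram-negative endotoxin that engages TLR4. Each of the 6 groups had 2 libraries, 12 in all, and the sources used here do not state whether the 2 came from separate mice, so p values measure only the spread between these libraries. Values are log2 CPM, the log2 of reads scaled to a normalized size of each library after 0.5 read was added. Reads over the listed genes were 0.867 to 0.945 of that size at 0 hr, 1.03 to 1.14 at 4 hr and 0.967 to 1.06 at 8 hr. Compared with scaling to these reads alone, values are thus lower at 0 hr and higher at 4 hr.

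T cells read antigen together with signals from surface proteins of the presenting cell. CD80 and CD86 bind CD28 to costimulate and CTLA-4 to inhibit, ICOSL binds ICOS, and PD-L1 (*Cd274*) and PD-L2 (*Pdcd1lg2*) bind the inhibitory receptor PD-1. CD40 is not a ligand but a receptor on the presenting cell that is engaged by CD40L on T cells, and CD83 is a surface protein of mature dendritic cells and activated macrophages. TIM-3 (*Havcr2*), CD200R1 and SIRPα are also receptors, through which macrophages receive restraining signals from galectin-9 and other ligands, from CD200 and from CD47, respectively.

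Each library held 9525979 to 12439960 reads over the listed genes, and 3 reads, taken as the detection floor, corresponded to a log2 CPM of -2.04 to -1.30. The 7 macrophage markers were all listed and summed to 16165 to 26353 CPM. *Lyz2* was the largest part of this sum, at a log2 CPM of 13.14 to 14.35 against 11.58 or less for the others. At 8 hr 3 of the 7 were higher and 2 lower than at 0 hr, against 24.5% and 21.6% of all genes. The largest of these changes were *Adgre1*, 2.59-fold higher, and *Itgam*, 1.36-fold lower (limma adjusted p = 2.41e-07 and 0.0025). The dendritic cell list had 5 of 7 markers listed and summed to 5.40 to 7.91 CPM at 0 hr, 5.98 to 8.59 at 4 hr and 9.36 to 12.1 at 8 hr. Its markers were split: at 8 hr *Ccr7* was 5.22-fold and *Flt3* 3.63-fold higher (limma adjusted p = 7.04e-07 and 0.0016). *Clec9a* was 3.43-fold lower (limma adjusted p = 0.000371), and *Cd209a*, which was not tested, had 0 to 3 reads. B cell (4 of 5 listed), T cell (2 of 5), mast cell (4 of 5) and mesothelial (3 of 3) lists summed to between 0.487 and 8.87 CPM. Of their tested markers, *Ms4a1* and *Lck* were called higher at 4 hr (1.80- and 2.39-fold, limma adjusted p = 0.0124 and 0.0086). *Cd2* was called lower at 8 hr (2.94-fold, limma adjusted p = 0.0148), on 2 to 8 reads per library. *Cd3d*, *Cd3e* and *Cd3g* were not in the table, and the NK cell list had 0 of 3 listed. The eosinophil list (2 of 5 listed) went from 15.3 to 18.5 CPM at 0 hr to 3.62 to 4.58 CPM at 8 hr. Most of this sum was *Siglecf*, with 196 to 234 reads per library at 0 hr against 1 to 2 for *Ccr3*. In contrast, *S100a8*, the 1 of 6 neutrophil markers listed, was 1.82-fold higher at 8 hr than at 0 hr (limma adjusted p = 0.0456). It was at 20.2 to 35.0 CPM in WT and 51.0 to 54.1 in S513A cells at 0 hr, at 43.6 to 63.5 and 51.0 to 106 at 4 hr, and at 81.6 to 99.0 and 31.8 to 84.0 at 8 hr. Whether these cells contributed to the members' values was not tested, and in RNA of whole PECs fewer cells of a type and less RNA per cell cannot be told apart. *Zc3h12a* itself had 362 to 600 reads per library at 0 hr, 2010 to 3007 at 4 hr and 1167 to 1604 at 8 hr. The per-gene counts do not show the mutated codon of *Zc3h12a*, so they do not check the genotype labels.

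The bases in front of the transcription start are shown for 4 members, *Icosl* and *Havcr2* because they had the largest change in each direction among the 5 members held in the RefSeq promoter table (GRCm38.p6), and *Cd274* and *Pdcd1lg2* because they are neighbours on chromosome 19. The windows lie on the plus strand at chr10:78069118-78069301, chr11:46454681-46454930, chr19:29367188-29367437 and chr19:29410669-29410918, and no base at or after the first annotated start of a gene is shown. Capitals mark matches on either strand to the kB motif of NF-κB or to the AP-1 motif TGANTCA. No match to the paired interferon element, 2 runs of GAAA with 2 bases between them, or to the GAS element TTCNNNGAA was found in the 250 bases before the start of these members, which does not say whether the factors act there.
Icosl: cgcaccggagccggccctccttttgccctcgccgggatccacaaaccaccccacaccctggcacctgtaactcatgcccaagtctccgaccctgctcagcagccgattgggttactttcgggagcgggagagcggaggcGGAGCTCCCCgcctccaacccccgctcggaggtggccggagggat
Havcr2: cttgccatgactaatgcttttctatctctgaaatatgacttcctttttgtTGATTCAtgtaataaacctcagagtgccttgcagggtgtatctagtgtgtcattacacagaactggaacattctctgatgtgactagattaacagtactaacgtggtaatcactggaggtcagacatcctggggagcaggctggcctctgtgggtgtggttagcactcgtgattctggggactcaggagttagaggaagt
Cd274: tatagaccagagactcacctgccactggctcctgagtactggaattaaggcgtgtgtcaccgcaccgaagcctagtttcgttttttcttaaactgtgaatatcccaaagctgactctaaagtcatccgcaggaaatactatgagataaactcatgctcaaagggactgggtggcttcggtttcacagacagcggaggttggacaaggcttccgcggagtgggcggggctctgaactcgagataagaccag
Pdcd1lg2: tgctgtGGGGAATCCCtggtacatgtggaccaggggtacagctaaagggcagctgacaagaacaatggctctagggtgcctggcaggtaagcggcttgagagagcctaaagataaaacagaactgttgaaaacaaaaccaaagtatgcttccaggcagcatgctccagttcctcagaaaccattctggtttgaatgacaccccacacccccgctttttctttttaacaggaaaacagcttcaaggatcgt

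Positions of matches are counted back from the RefSeq start, before which 250 bases were searched. For *Icosl* that start lies inside the annotated gene, so the last 66 of the 250 bases are not shown, and its kB match 111 to 102 bases before the RefSeq start is 45 to 36 bases before the gene. *Pdcd1lg2* held a kB match at 244 to 235 bases and *Havcr2* an AP-1 match at 200 to 194 bases. *Cd274* had no match to any of the 4 motifs. The *Cd80* window, which is not shown because it belongs to a start site downstream of the first annotated one, held an AP-1 match 42 to 36 bases before that start. Among 32841 windows of 250 bases in the table, 7.25% held the kB motif, 6.75% the AP-1 motif, 7.02% the GAS motif and 2.98% the paired interferon element. The matches shown do not overlap each other, and they are descriptions of letters rather than binding sites.

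LPS changed most of the members, in opposite directions. After 4 hr, 6 of 10 members rose and 3 fell (limma, adjusted p under 0.05), where 29.1% of the 11885 genes tested rose and 26.7% fell. After 8 hr, 4 members were higher and 4 were lower than at 0 hr, against 24.5% and 21.6% of all genes. The members' median log2 fold change was 0.51 at 4 hr and 0.34 at 8 hr, beside 0.02 and -0.00070 over all genes. The comparisons at 4 and 8 hr share the 0 hr libraries. All 10 members passed the filter on low values, and the values given below are means over both genotypes unless a genotype is named.

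**Figure D1:**
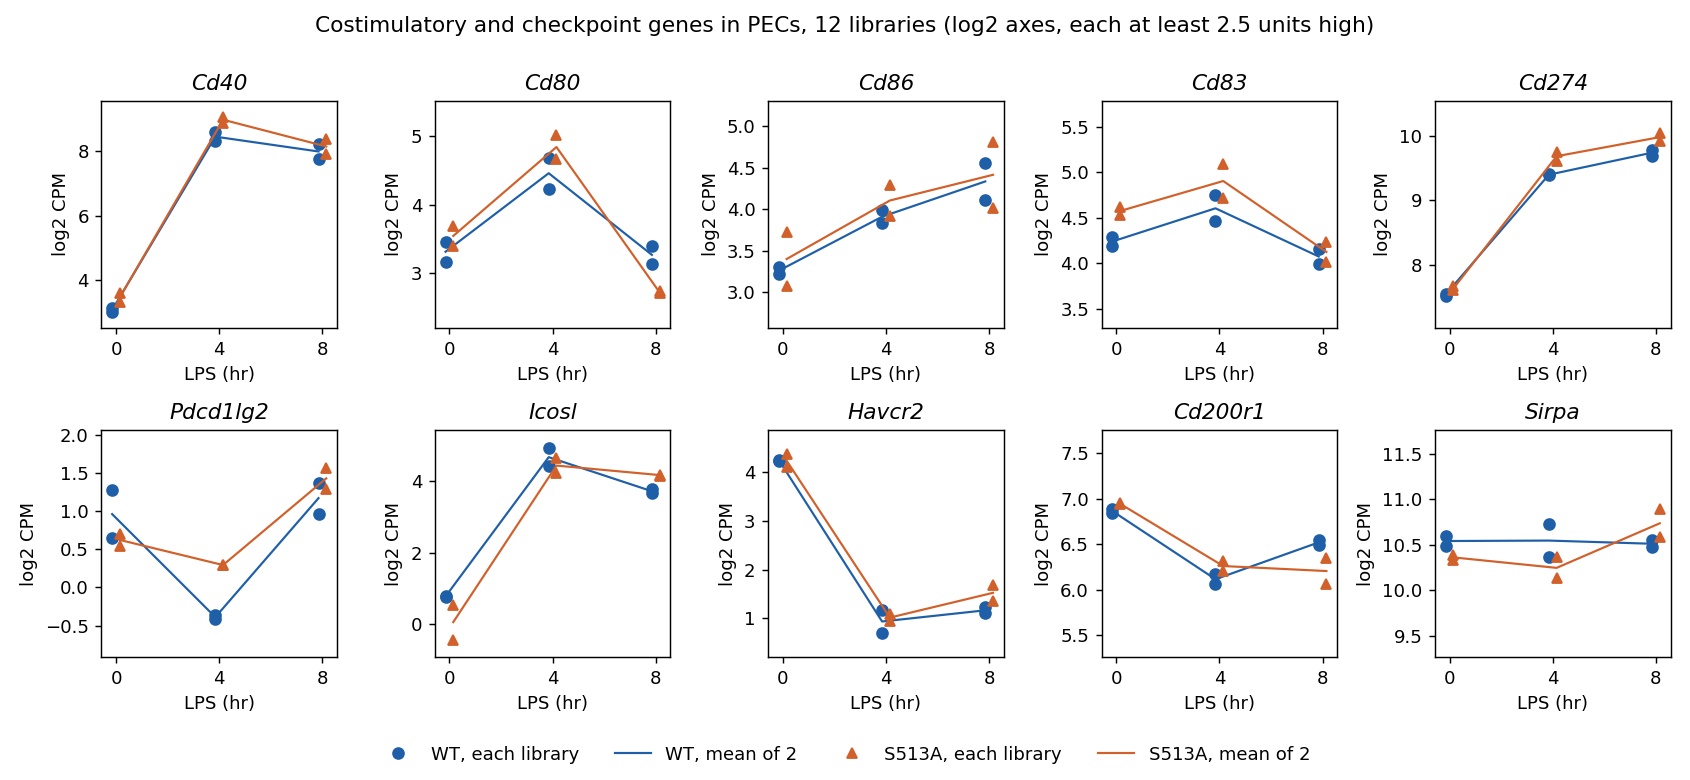
Log2 CPM of each of the 10 members (panels, log2 axes) against hours of LPS, with each library as a point (circles WT, triangles S513A) and lines joining the means of 2 libraries. *Cd40*, *Icosl* and *Cd274* rise, *Havcr2* falls, *Cd80* peaks at 4 hr, *Pdcd1lg2* dips at 4 hr and *Sirpa* stays between 10.13 and 10.89.

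*Cd40* (chromosome 2, 165055627 to 165072948, GRCm38) had the largest change. Its log2 CPM at 0 hr was 3.03 and 3.14 in the WT libraries and 3.34 and 3.62 in the S513A libraries, which is 114 to 146 reads. At 4 hr it was 8.61 and 8.31 in WT and 8.89 and 9.08 in S513A cells, and at 8 hr 7.77 and 8.23 in WT and 7.91 and 8.40 in S513A cells. Every stimulated library lay far above every unstimulated one, and the 8 hr libraries were mostly below those of 4 hr. The rise was 43.4-fold at 4 hr (log2 fold change 5.44, SE 0.14, limma with Benjamini-Hochberg adjusted p = 2.42e-10) and 27.7-fold at 8 hr (4.79, SE 0.14, adjusted p = 9.94e-10). Between 4 and 8 hr *Cd40* fell by 0.65 on the log2 scale (SE 0.14, limma adjusted p = 0.0065), with overlap of the 4 hr and 8 hr libraries at 8.31 and 8.40.

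*Cd80* (chromosome 16, 38455561 to 38496335) rose at 4 hr and fell again by 8 hr. The log2 CPM was 3.17 and 3.46 in WT and 3.40 and 3.69 in S513A cells at 0 hr, and 4.68 and 4.23 in WT and 4.66 and 5.01 in S513A cells at 4 hr. By 8 hr the values were 3.40 and 3.14 in WT and 2.74 and 2.71 in S513A cells. The 4 hr libraries were above all others, while the WT libraries at 8 hr lay within or just under the range at 0 hr and both S513A libraries lay under it. *Cd80* rose 2.32-fold at 4 hr (log2 fold change 1.21, SE 0.14, limma adjusted p = 2.73e-05) and fell by 1.65 from 4 to 8 hr (SE 0.14, limma adjusted p = 2.67e-05). The level at 8 hr was below that at 0 hr with a log2 fold change of -0.43 (SE 0.14, limma adjusted p = 0.0268), a call that was lost without the second WT library of 0 hr, the second WT library of 8 hr or the second S513A library of 0 or 8 hr (adjusted p up to 0.103).

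*Cd86* (chromosome 16, 36603869 to 36666081), the other ligand of CD28 and CTLA-4, was higher than at 0 hr at both times. At 0 hr the log2 CPM was 3.30 and 3.22 in WT and 3.07 and 3.73 in S513A cells. It reached 3.99 and 3.83 in WT and 3.92 and 4.29 in S513A cells at 4 hr, and 4.11 and 4.56 in WT and 4.02 and 4.81 in S513A cells at 8 hr. Stimulated and unstimulated libraries did not overlap, but the S513A libraries at 0 and 8 hr were spread wider than the others. The rise was 59.6% at 4 hr (log2 fold change 0.67, SE 0.20, limma adjusted p = 0.0142) and 2.06-fold at 8 hr (1.04, SE 0.20, limma adjusted p = 0.0014). Without the first S513A library of 0 hr or the second of 4 hr, the adjusted p at 4 hr became 0.0651 and 0.0531. From 4 to 8 hr the difference of 0.37 had a 95% confidence interval of -0.07 to 0.81 (limma adjusted p = 0.212).

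The ratio of the CD28 ligands per transcript length was lowest at 4 hr and highest at 8 hr. Within a library, the ratio of *Cd86* to *Cd80* RPKM was 1.16 to 1.59 at 0 hr, 0.869 to 1.10 at 4 hr and 2.39 to 6.26 at 8 hr. The ranges at the 3 time points did not overlap, those of 4 hr lay on both sides of equal levels, and the 8 hr ratio was highest in an S513A library and lowest in a WT library. These ratios are given as a description of a pair that shares its receptors, and they were chosen after values were seen.

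*Icosl* (chromosome 10, 78069302 to 78083913) rose from near the floor. Reads numbered 24 and 22 in the WT libraries and 8 and 17 in the S513A libraries at 0 hr, a log2 CPM of 0.77, 0.79, -0.42 and 0.55. At 4 hr the log2 CPM was 4.41 and 4.92 in WT and 4.64 and 4.22 in S513A cells, and at 8 hr 3.77 and 3.66 in WT and 4.18 and 4.15 in S513A cells. All stimulated libraries were above all unstimulated ones, and all 4 hr libraries were above all 8 hr libraries. The rise was 17.4-fold at 4 hr (log2 fold change 4.12, SE 0.20, limma adjusted p = 3.40e-08) and 11.4-fold at 8 hr (3.51, SE 0.20, limma adjusted p = 1.57e-07). On these few reads at 0 hr, a further pseudocount of 1 CPM lowered these log2 values to 3.36 and 2.78. The difference from 4 to 8 hr was -0.61 (SE 0.20, limma adjusted p = 0.0507), and it passed the threshold in 4 of 17 alternatives, 1 of them without the first WT library of 4 hr (adjusted p = 0.0324).

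*Cd83* (chromosome 13, 43784775 to 43803132) moved little. Its log2 CPM was 4.19 and 4.29 in WT and 4.53 and 4.62 in S513A cells at 0 hr, 4.75 and 4.46 in WT and 5.09 and 4.72 in S513A cells at 4 hr, and 3.99 and 4.16 in WT and 4.02 and 4.23 in S513A cells at 8 hr. The 0 hr range overlapped both others, whereas every 8 hr library was below every 4 hr library. *Cd83* rose 1.27-fold at 4 hr (log2 fold change 0.35, SE 0.11, limma adjusted p = 0.0203) and fell by 0.65 from 4 to 8 hr (SE 0.11, limma adjusted p = 0.0017). At 8 hr it was below 0 hr with a log2 fold change of -0.30 (SE 0.11, limma adjusted p = 0.0452). The call at 8 hr was lost in 9 of 17 alternatives (adjusted p up to 0.142), 7 of which left out 1 library: either library of WT at 0 or 8 hr, either S513A library at 0 hr or the first S513A library at 8 hr. The call at 4 hr was lost without the first library of WT or of S513A at 0 hr or at 4 hr (adjusted p up to 0.0808).

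The 2 ligands of PD-1 went separate ways at 4 hr. *Cd274* (chromosome 19, 29367455 to 29388095) was at 7.56 and 7.53 log2 CPM in WT and 7.61 and 7.67 in S513A cells at 0 hr. It was at 9.40 and 9.39 in WT and 9.61 and 9.75 in S513A cells at 4 hr, and at 9.69 and 9.78 in WT and 9.91 and 10.04 in S513A cells at 8 hr. Replicates were close together, and within each genotype the 8 hr libraries lay above those of 4 hr and these above those of 0 hr. *Cd274* rose 3.85-fold at 4 hr (log2 fold change 1.94, SE 0.07, limma adjusted p = 3.46e-09) and 4.79-fold at 8 hr (2.26, SE 0.07, limma adjusted p = 1.84e-09). The further rise of 0.32 from 4 to 8 hr (SE 0.07) also passed the threshold (limma adjusted p = 0.0089).

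*Pdcd1lg2* (chromosome 19, 29410919 to 29471161) starts 22823 bases beyond the end of *Cd274* on the same strand and was counted on few reads. The libraries held 22 and 31 reads in WT and 18 and 17 in S513A cells at 0 hr, 8 and 8 in WT and 12 and 10 in S513A cells at 4 hr, and 27 and 20 in WT and 28 and 27 in S513A cells at 8 hr. In the same order, log2 CPM was 0.65, 1.28, 0.70 and 0.55 without LPS, -0.42, -0.36, 0.30 and 0.29 after 4 hr, and 1.38, 0.97, 1.30 and 1.57 after 8 hr. The 4 hr libraries were below all others, and the 0 and 8 hr libraries overlapped. *Pdcd1lg2* fell by 0.84 at 4 hr (SE 0.22, limma adjusted p = 0.0069), which is 1.79-fold lower, and rose 2.55-fold from 4 to 8 hr (log2 fold change 1.35, SE 0.22, limma adjusted p = 0.0013). In WT cells the fall at 4 hr was 1.35 (limma adjusted p = 0.0051), whereas in S513A cells the value was -0.33 and did not pass the threshold (limma adjusted p = 0.421). With a further pseudocount of 1 CPM the value at 4 hr over both genotypes was -0.47 and that from 4 to 8 hr 0.81, both past the threshold. At 8 hr it was 0.51 above 0 hr (95% confidence interval 0.03 to 0.99, limma adjusted p = 0.0789), and it passed the threshold in 3 of 16 alternatives, 1 of them without the second WT library of 0 hr (adjusted p = 0.0485). *Cd274* exceeded *Pdcd1lg2* per transcript length in every library, by 41.2- to 74.9-fold at 0 hr, 343- to 490-fold at 4 hr and 171- to 243-fold at 8 hr.

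**Figure D2:**
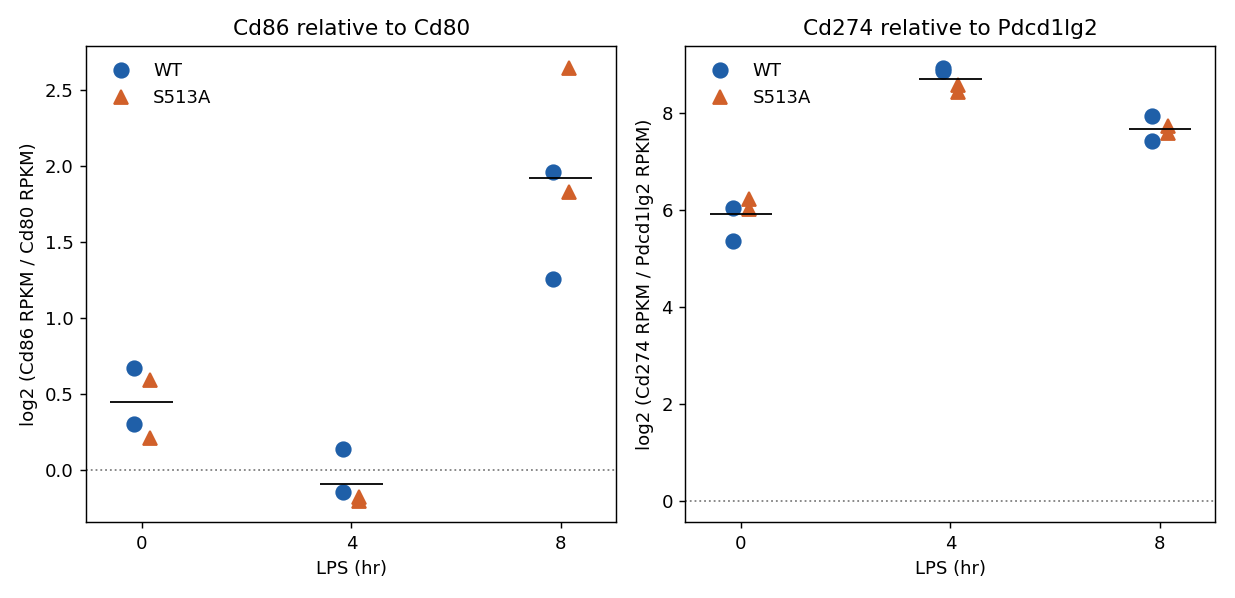
Log2 ratio of RPKM within each library for *Cd86* over *Cd80* (left) and *Cd274* over *Pdcd1lg2* (right) against hours of LPS, with circles for WT, triangles for S513A, black bars for the mean of 4 libraries and a dotted line at equal levels. The mean *Cd86* to *Cd80* log2 ratio goes from 0.44 to -0.10 and then 1.92, and that of *Cd274* to *Pdcd1lg2* from 5.91 to 8.70 and then 7.66.

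Among the restraining receptors, *Havcr2* (chromosome 11, 46454935 to 46481255) had the largest fall of the members. Its log2 CPM was 4.26 and 4.24 in WT and 4.37 and 4.11 in S513A cells at 0 hr. It was 1.17 and 0.69 in WT and 1.08 and 0.94 in S513A cells at 4 hr, and 1.10 and 1.22 in WT and 1.69 and 1.35 in S513A cells at 8 hr. Reads fell from 206 to 274 per library at 0 hr to 16 to 25 at 4 hr and 22 to 37 at 8 hr, with no overlap between stimulated and unstimulated libraries. *Havcr2* was 9.70-fold lower at 4 hr (log2 fold change -3.28, SE 0.15, limma adjusted p = 2.09e-08) and 7.49-fold lower at 8 hr (-2.91, SE 0.15, limma adjusted p = 7.18e-08). Over 17 alternatives these log2 values ranged from -3.40 to -2.75 at 4 hr and from -2.99 to -2.50 at 8 hr. From 4 to 8 hr the difference was 0.37 (95% confidence interval 0.03 to 0.71, limma adjusted p = 0.103, or 0.0373 without the first WT library of 4 hr).

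*Cd200r1* (chromosome 16, 44765736 to 44794978) fell less. It was at 6.84 and 6.89 log2 CPM in WT and 6.95 and 6.94 in S513A cells at 0 hr, 6.17 and 6.06 in WT and 6.20 and 6.32 in S513A cells at 4 hr, and 6.55 and 6.49 in WT and 6.06 and 6.35 in S513A cells at 8 hr. All unstimulated libraries were above all stimulated ones. Both S513A libraries were above both WT libraries at 0 and 4 hr and below them at 8 hr. It was 1.65-fold lower at 4 hr (log2 fold change -0.72, SE 0.08, limma adjusted p = 2.25e-05) and 1.46-fold lower at 8 hr (-0.54, SE 0.08, limma adjusted p = 0.000253). Its paralog *Cd200r4* fell by 0.36 at 4 hr (limma adjusted p = 0.0151) and was 0.30 higher at 8 hr (limma adjusted p = 0.0424), and reads may be split between these similar genes.

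*Sirpa* (chromosome 2, 129592835 to 129632228) was the most abundant member and the 1 member with no call in any LPS comparison. Its log2 CPM was 10.60 and 10.48 in WT and 10.33 and 10.39 in S513A cells at 0 hr, 10.36 and 10.73 in WT and 10.36 and 10.13 in S513A cells at 4 hr, and 10.55 and 10.47 in WT and 10.89 and 10.58 in S513A cells at 8 hr. The ranges at the 3 times overlapped. The log2 fold change was -0.05 at 4 hr (95% confidence interval -0.30 to 0.19, limma adjusted p = 0.711) and 0.17 at 8 hr (-0.07 to 0.42, limma adjusted p = 0.234). From 4 to 8 hr the difference was 0.23 (limma adjusted p = 0.168, or 0.0443 without the second WT library of 4 hr). After quantile normalization *Sirpa* was called lower at 4 hr (-0.46, limma adjusted p = 0.0075) and its value at 8 hr was -0.13. The family members *Sirpb1a* and *Sirpb1b* had log2 fold changes of -1.84 and -0.97 at 4 hr (limma adjusted p = 0.0198 and 0.0031). They had only 3 to 11 and 11 to 16 reads per library, and reads may be split between these similar genes. Of the 9 names of receptor paralogs 4 were tested. At 4 hr 1 (*Timd4*, log2 fold change 1.04, limma adjusted p = 0.000445) rose and 3 fell, against 29.1% and 26.7% of all genes.

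**Figure D3:**
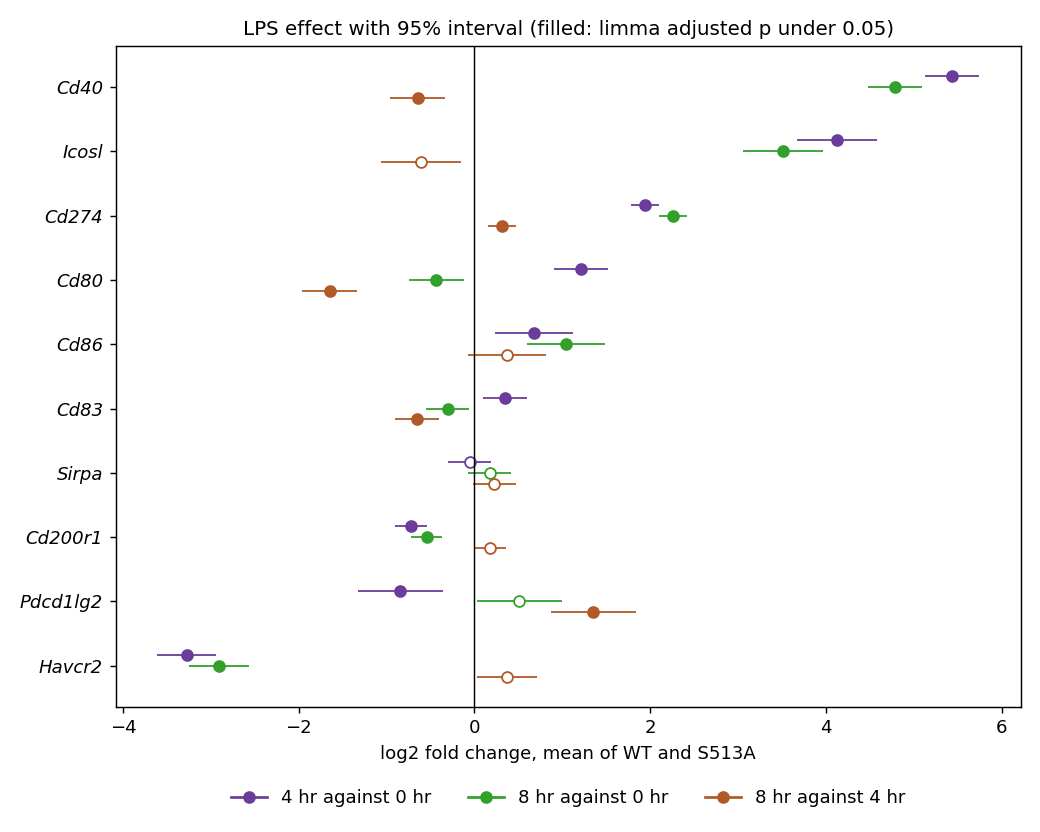
Log2 fold change (points) with 95% confidence interval (bars) of each member for 4 against 0 hr, 8 against 0 hr and 8 against 4 hr of LPS, averaged over WT and S513A, with filled points for a limma adjusted p under 0.05. Members run from *Cd40* at 5.44 to *Havcr2* at -3.28 at 4 hr, and of the 2 comparisons against 0 hr, *Cd80*, *Cd83*, *Pdcd1lg2* and *Sirpa* have points on both sides of 0.

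Between 4 and 8 hr, 2 members rose (*Pdcd1lg2* and *Cd274*) and 3 fell (*Cd80*, *Cd83* and *Cd40*), where 12.8% of all genes rose and 12.8% fell. The members' median difference was 0.20, beside -0.02 over all genes. *Cd40*, *Icosl*, *Cd274* and *Cd86* were higher than at 0 hr and *Havcr2* and *Cd200r1* lower at both times.

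Levels were compared between members per transcript length (RPKM, mean of 4 libraries). At 0 hr the order was *Sirpa* at 331, *Cd200r1* at 63.4 and *Cd274* at 53.3, followed by *Cd83* at 8.62 and *Havcr2* at 6.98, *Cd86* at 4.03, *Cd40* at 3.30 and *Cd80* at 2.94, and then *Pdcd1lg2* at 0.903 and *Icosl* at 0.502. The libraries of *Cd83* and *Havcr2* overlapped, as did those of *Cd86* with *Cd40* and of *Cd40* with *Cd80*, and all other neighbours in this order were apart. At 4 hr *Sirpa* at 321, *Cd274* at 206, *Cd40* at 144 and *Cd200r1* at 38.6 were each apart from the next. *Cd83* at 11.0, *Icosl* at 8.45, *Cd80* at 6.89 and *Cd86* at 6.38 overlapped with their neighbours, as did *Havcr2* at 0.725 with *Pdcd1lg2* at 0.507. At 8 hr the first 4 places were unchanged, with *Sirpa* at 374, *Cd274* at 256, *Cd40* at 91.7 and *Cd200r1* at 43.9. *Cd86* at 8.39, *Cd83* at 6.95 and *Icosl* at 5.51 overlapped with their neighbours, *Cd80* at 2.20 was apart from both of its own, and *Pdcd1lg2* at 1.28 overlapped with *Havcr2* at 0.942. *Havcr2* moved from the fifth place at 0 hr to the last at 8 hr, and *Cd40* from the seventh to the third.

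**Figure D4:**
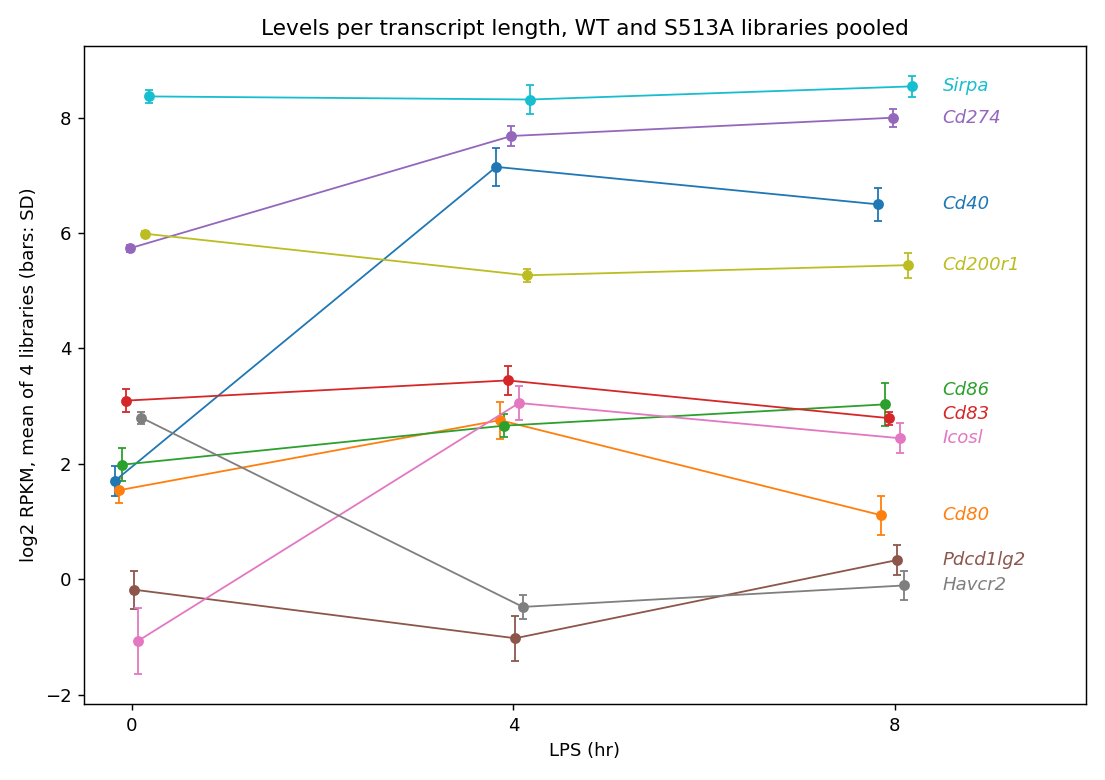
Mean log2 RPKM of each member (colours, named at the right) against hours of LPS, over 4 libraries of both genotypes, with bars for the SD. *Sirpa* stays on top, *Cd274* and *Cd40* pass *Cd200r1* by 4 hr, and *Havcr2* drops from 6.98 to 0.725 RPKM.

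The second question was whether the S513A allele changed these transcripts. None of the 10 members passed the threshold (limma, Benjamini-Hochberg adjusted p under 0.05) at 0 hr, at 4 hr, at 8 hr or in the mean of the 3 time points, where 0.0337%, 0.0168%, 0.0337% and 0.0673% of all genes did. At an unadjusted p under 0.05 there were 1, 2, 3 and 3 members, respectively, beside 7.98%, 7.01%, 12.5% and 6.71% of all genes, and limma with voom weights also called 0 members. With those weights 0, 2, 2 and 3 members had an unadjusted p under 0.05, while the shares over all genes given here are without them. Members had a median difference of 0.09, 0.24, 0.19 and 0.14 in the same order, beside 0.0055, 0.0068, 0.011 and 0.0066 over all genes.

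*Cd274* was the 1 member whose S513A libraries lay above both WT libraries at all 3 times, and 1.63% of all genes had their S513A libraries on the same side of WT, above or below, throughout. The 3 time points gave log2 fold changes of 0.09, 0.28 and 0.24, respectively, with a mean of 0.20 (95% confidence interval 0.07 to 0.33, limma adjusted p = 0.480). *Cd40* was higher in both S513A libraries at 0 and 4 hr but not at 8 hr, with a mean log2 fold change of 0.36 (95% confidence interval 0.11 to 0.61, limma adjusted p = 0.565). *Cd83* had a mean of 0.23 (0.03 to 0.43, limma adjusted p = 0.697), and its libraries were apart at 0 hr alone. These differences correspond to 15.2%, 28.1% and 17.1%, and none passed the correction. The intervals of these means treat libraries of different times as independent, which may not hold. How many of all genes had libraries apart at a single time is not given here.

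Values at single times are given for other members, none of them past the threshold. At 0 hr *Icosl* had a log2 fold change of -0.72 in S513A cells, on 8 and 17 against 24 and 22 reads (limma adjusted p = 0.586). At 8 hr *Cd80* was at -0.55 (95% confidence interval -0.99 to -0.11, limma adjusted p = 0.395) and *Cd200r1* at -0.31 (-0.57 to -0.06, limma adjusted p = 0.395). For *Pdcd1lg2* at 4 hr the value was 0.68 (95% confidence interval -0.0023 to 1.36, limma adjusted p = 0.622) on 8 and 8 against 12 and 10 reads. The intervals at 4 hr ran from -0.43 to 0.82 for *Cd86* and from -0.88 to 0.41 for *Icosl*, so differences within those limits could not be told from 0 with 2 libraries per group.

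**Figure D5:**
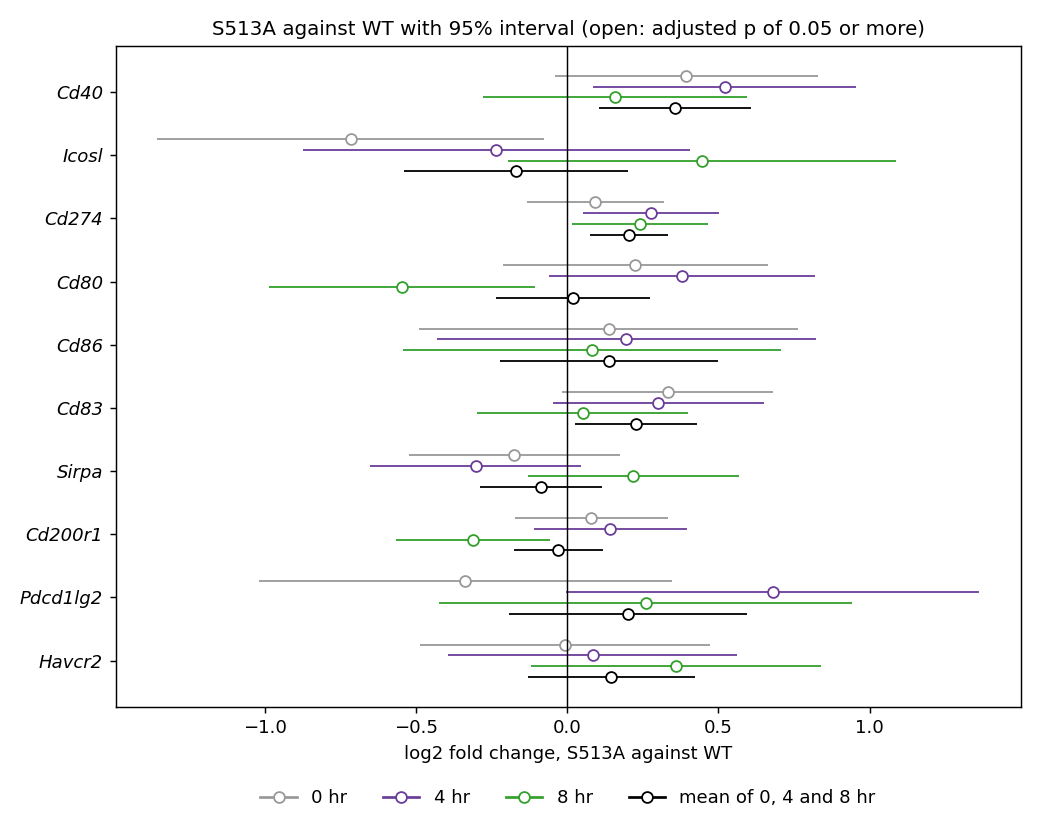
Log2 fold change of S513A against WT (open points) with 95% confidence interval (bars) for each member at 0, 4 and 8 hr and in their mean. Every point is open because no adjusted p was under 0.05, and the mean of *Cd274* is 0.20, that of *Cd40* 0.36 and that of *Cd83* 0.23.

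The response to LPS was also compared between genotypes with the interaction term. It called 0 members both at 4 hr and after 8 hr (limma, adjusted p under 0.05), as for 0.0% of all genes at either time, and voom weights gave 0 as well, with 0 and 2 members at an unadjusted p under 0.05. The share over all genes with these weights is not given here. Without them, 1.21% of all genes at 4 hr and 20.2% at 8 hr had an unadjusted p under 0.05. At an unadjusted p under 0.05 there was 1 member at 4 hr, *Pdcd1lg2* (interaction 1.02, limma adjusted p = 1.00), and there were 3 at 8 hr. Those were *Icosl* (1.16, SE 0.41, limma adjusted p = 0.199), *Cd80* (-0.77, SE 0.28, limma adjusted p = 0.204) and *Cd200r1* (-0.39, SE 0.16, limma adjusted p = 0.229). For *Cd80* the change from 0 to 8 hr was -0.05 in WT and -0.82 in S513A cells, for *Cd200r1* -0.35 and -0.74, and for *Icosl* 2.93 and 4.09. For the members with the largest responses the changes were 5.38 in WT and 5.50 in S513A cells for *Cd40* at 4 hr (interaction 0.13, 95% confidence interval -0.49 to 0.74) and -3.32 and -3.23 for *Havcr2* (0.09, -0.59 to 0.77).

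Transcripts of some proteins that bind the members were measured in the same PECs. Of 11 binding partners, 7 were listed, and 3 rose and 3 fell at 4 hr, where 29.1% of all genes rose and 26.7% fell. *Lgals9*, the galectin-9 ligand of TIM-3, rose by 1.07 at 4 hr and by 1.92 after 8 hr (limma adjusted p = 3.55e-07 and 5.21e-09), and *Cd47*, the SIRPα ligand, by 0.82 and 1.02 (adjusted p = 0.000111 and 2.87e-05). *Cd200*, the ligand of CD200R1, rose by 0.44 and 0.30 (limma adjusted p = 0.0032 and 0.0320). *Cd28*, the receptor of CD80 and CD86, had 97 to 115 reads per library at 0 hr, 2 to 8 at 4 hr and 2 to 6 at 8 hr, a log2 fold change of -4.23 at 4 hr (limma adjusted p = 2.20e-06) that reaches the floor of 3 reads in some libraries. *Ceacam1* fell by 0.86 and 1.34 (limma adjusted p = 6.95e-05 and 2.72e-06), and *Hmgb1* was lower at 4 hr (-0.34, limma adjusted p = 0.0403). At 8 hr 3 partners were higher and 2 lower than at 0 hr, against 24.5% and 21.6% of all genes.

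Other ligands of these families changed in both directions too. Of 16 names 11 were listed and 10 tested. Of these, 7 rose and 2 fell at 4 hr, where 29.1% of all genes rose and 26.7% fell. At 8 hr 7 were higher and 2 lower, against 24.5% and 21.6% of all genes. *Tnfsf15* rose 136-fold at 4 hr (log2 fold change 7.09, limma adjusted p = 6.26e-11) and was 16.7-fold up at 8 hr. *Icam1*, an adhesion ligand of T cell integrins, and *Tnfsf9*, a costimulatory ligand of the TNF family, rose 9.33- and 9.01-fold at 4 hr (limma adjusted p = 3.56e-10 and 5.81e-08), and *Tnfsf4* was 5.64-fold up at 8 hr (adjusted p = 2.15e-05). *Vsir*, which encodes the inhibitory ligand VISTA, dropped from 8.96 to 9.11 log2 CPM at 0 hr to 6.12 to 6.45 at 4 hr (6.46-fold lower, limma adjusted p = 1.22e-09), and *Cd276* fell by 0.47 (adjusted p = 0.0153).

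Of 22 names for intracellular partners 20 were tested. Of these, 12 rose and 4 fell at 4 hr, where 29.1% of all genes rose and 26.7% fell. At 8 hr 13 were higher and 2 lower, against 24.5% and 21.6% of all genes. Of the 8 CD40 adaptors and associated proteins 7 rose at 4 hr and 7 were higher at 8 hr, led at 4 hr by *Traf1* (18.9-fold), *Traf5* (3.59-fold) and *Birc3* (2.94-fold), with limma adjusted p of 1.98e-10, 1.41e-08 and 2.55e-08. The SIRPα partners *Ptpn6*, *Ptpn11* and *Fyb* rose by 0.75, 0.89 and 0.66 at 4 hr (limma adjusted p = 1.37e-05, 1.08e-06 and 0.000414). The CD200R1 partners *Inpp5d* and *Dok2* fell by 1.44 and 0.59 at 4 hr (limma adjusted p = 4.00e-06 and 0.000160), and *Rasa1* was at -0.22 (limma adjusted p = 0.0447). At 8 hr *Inpp5d* and *Dok2* were at -0.24 and 0.08 (limma adjusted p = 0.165 and 0.509). *Dok1*, another CD200R1 partner, rose by 0.37 at 4 hr and by 0.60 at 8 hr (limma adjusted p = 0.0026 and 0.000122). *March1*, whose product lowers CD86 at the surface, was 0.69 and 1.05 higher at 4 and 8 hr (limma adjusted p = 4.26e-05 and 2.12e-06), and *Cmtm4*, whose product stabilizes PD-L1, fell by 0.90 and 0.79 (adjusted p = 6.62e-06 and 2.57e-05). *Cmtm6*, which also stabilizes PD-L1 and is named after its values were seen, was at 0.10 at both times (limma adjusted p = 0.191 and 0.209). Among the 37 genes of the binding partner, ligand and intracellular lists, 0 were called between genotypes at 0, 4 or 8 hr by limma or with voom weights, and 3, 2 and 5 had an unadjusted limma p under 0.05, where 7.98%, 7.01% and 12.5% of all genes did.

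The genes with the profile most like that of each member were taken by Pearson r over the 12 libraries among 8346 genes, as a description, since libraries of 1 time point share the LPS response. *Cd40* was closest to *Usp18* and *Ifi209* (r = 0.998 each), *Cd274* to *Gbp3* and *Sppl2a* (0.998 and 0.997) and *Icosl* to *Socs3* and *6530402F18Rik* (0.997 and 0.995). *Havcr2* was closest to *Entpd1* and *Daglb* (0.995 and 0.993), *Sirpa* to *Myh9* and *Csf2rb* (0.989 and 0.983) and *Cd200r1* to *Hsdl2* (0.979). The remaining members had lower values, with *Tmem50b* and *Gnai3* for *Cd80* (0.953 and 0.952), *Ap3s2* and *Ubxn8* for *Cd86* (0.953 and 0.948), *Pea15a* and *Hnrnpf* for *Cd83* (0.945 and 0.916) and *Parp3* and *Tubgcp2* for *Pdcd1lg2* (0.901 and 0.889). Among the members, *Cd40* and *Icosl* and *Cd40* and *Cd274* were alike (0.970 each), and *Cd40* and *Havcr2* ran opposite (-0.986).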

How the data were processed

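RNA-seq of PECs (12 libraries, 6 groups of 2 by genotype and hours of LPS) was used. The authors mapped paired-end reads to mm10 with HISAT2 in unstranded mode and counted them with featureCounts 1.6.3. The deposited values are log2 CPM, normalized by the authors with 0.5 read added; the program, annotation and gene filter are not given in the sources used here. Whole reads were recovered with a largest departure of 0.00103 read, 112 rows had no symbol, and RPKM used GENCODE M21 exon lengths (GRCm38). The 11885 genes that reached 1 CPM in 2 or more libraries were tested with limma 3.58.1 in R 4.3.3 (6 group means, 6 residual degrees of freedom, trended prior, two-sided, Benjamini-Hochberg over all genes, threshold 0.05). The model was tested on simulated data with changes at 4 hr. Those libraries were drawn independently and with 1 setting of the spread, which the real libraries need not share. Tables and plots used Python 3.11.15, pandas 2.3.3 and matplotlib 3.10.9. Members, lists and tests were chosen with earlier results of these data known. Named list genes are at most the 3 largest called changes per list and direction. The nearest genes are the 2 non-members with the highest r at a mean log2 CPM of at least 3, of which 1 is not reported here. *Cmtm6*, the ratios between ligands and the voom weights were chosen after values were seen. Confidence intervals come from limma and measure the spread between libraries, and the floor of 3 reads covers counting error only.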

Additional observations from a re-analysis of the deposited data

How the results depend on the processing

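Alternatives were 9 that kept all libraries and 12 that left out 1 library each. The 10 members with LPS kept direction and side of the threshold in most of them: 160 results were unchanged at 4 hr against 0 hr, 152 at 8 hr against 0 hr and 163 at 8 hr against 4 hr, with 6, 13 and 0 calls lost, 1, 3 and 6 gained and 2, 1 and 0 changes of sign. Members called lower at 8 hr numbered 2 to 3 when 1 library was left out, against 4, and 2 without the second WT library of 0 or 8 hr or the second S513A library of 0 hr. Members called higher from 4 to 8 hr numbered 1 with the stricter filter (mean of at least 5 CPM), which removes *Pdcd1lg2*. *Sirpa* at 8 hr was -0.13 after quantile normalization, and at 4 hr it ranged from -0.146 to 0.0387 with 1 library left out. *Cd80* ranged from -0.0550 to 0.0945 and *Cd200r1* from -0.0774 to 0.0187 for S513A against WT over the 3 times, both close to 0. Apart from the filter, the cause was not tested.

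Differences between replicates 1 and 2 correlated between 4 and 8 hr in S513A cells (r = 0.76 over 8353 genes). The other correlations ran from -0.36 to 0.15, so replicate numbers were not used as pairs in the main model. Libraries of different times may therefore not be independent. With a replicate block 6 members were called higher and 3 lower at 4 hr, 4 and 3 at 8 hr against 0 hr, and 2 and 3 at 8 hr against 4 hr, and *Cd83* at 8 hr lost its call (limma adjusted p = 0.0706). No alternative called a member between genotypes, although over all genes the count at 0 hr was 0 to 693 (4 as reported, 693 with only the groups compared) and the interaction at 8 hr was 651 without the second S513A library of 8 hr. *Pdcd1lg2*, *Icosl* at 0 hr and *Havcr2* after LPS are limited by their few reads.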
